A study of Saccharomyces cerevisiae with 116 samples.

Results

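Chromosome IX of budding yeast (Saccharomyces cerevisiae) was followed in lines that carried 1, 2 or 3 copies of it. Its genes were taken as every row of the count files whose systematic name starts with YIL (left arm) or YIR (right arm), which gave 251 of 7126 features. The libraries come from mutation accumulation, in which diploid lines are passed through single colonies so that chromosome gains and losses persist. RNA was read from 3 colonies per line, harvested while growing exponentially in YPD at 30 °C. The homozygous experiment (HH) descended from a diploid ancestor of S288C background that was ho and carried ade2 and ura 3-52, with further markers lys2-801 and leu2-3.112 beside his3-delta-D200, and its lines had passed 2063 generations. The heterozygous experiment (Hh) descended from a cross of the strain NCYC 3631, derived from the oak strain YPS606, with NCYC3596, derived from DBPVG1106, with the genotype ho,ura3, and its lines had passed 2108 generations. Every line of an experiment, euploid lines included, carries those markers, and each line is 1 lineage with its own further mutations.

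In HH, 1 copy was carried by 2 lines, HH29 (Monosomy IX) and HH108 (Trisomy VIII, Monosomy IX). In HH, 3 copies were carried by 3 lines, HH15, HH88 and HH119 (Trisomy IX), and 2 copies by 11 euploid lines. In Hh, 3 copies were carried by 1 line, Hh76 (Trisomy IX, Partial X, Trisomy XIV), against 5 euploid lines. HH29 and the euploid lines HH50 and HH115 carry names with X, and the other 13 HH lines carry names with SC. HH108 is the only 1-copy line of the SC names and also has 3 copies of chromosome VIII, so the effects of the 2 chromosomes cannot be told apart in it. A line is the replicate throughout, and p-values measure the spread between lines.

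Genes on a chromosome that is gained or lost usually change their transcript level with the number of gene copies, because each copy is transcribed on its own. A gene whose promoter answers to the amount of its product or of a metabolite can depart from this. Chromosome IX holds SUC2, which encodes invertase, and FLO11, a cell surface adhesin. It also holds the cluster of DAL genes, which break down allantoin as a nitrogen source, and genes for histidine, lysine and serine synthesis.

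The promoters below belong to genes the later results turn on, and they were read from the RefSeq assembly R64, the same build as sacCer3. Each runs from 300 to 51 bases before the start codon, 5′ to 3′ on the gene's own strand. In the first 5, capitals mark TGACTC on either strand, the core of the sequence bound by Gcn4, the activator of amino acid synthesis genes. NIT1, SER33, HIS5 and THS1 stayed above the proportional level at 1 copy, and LYS12 is shown for contrast. The windows are chrIX:34737-34986 (NIT1, minus strand), chrIX:222541-222790 (SER33, minus), chrIX:142628-142877 (HIS5, plus), chrIX:212199-212448 (THS1, plus) and chrIX:187683-187932 (LYS12, minus).
NIT1: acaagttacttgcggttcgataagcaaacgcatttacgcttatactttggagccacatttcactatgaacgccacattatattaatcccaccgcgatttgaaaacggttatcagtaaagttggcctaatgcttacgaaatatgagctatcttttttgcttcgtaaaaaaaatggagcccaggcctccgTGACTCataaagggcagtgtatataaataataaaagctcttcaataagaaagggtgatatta
SER33: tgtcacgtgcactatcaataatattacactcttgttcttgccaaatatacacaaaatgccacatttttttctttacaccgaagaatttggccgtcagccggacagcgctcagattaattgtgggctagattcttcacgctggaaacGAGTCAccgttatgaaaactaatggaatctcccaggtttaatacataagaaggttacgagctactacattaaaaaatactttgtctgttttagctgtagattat
HIS5: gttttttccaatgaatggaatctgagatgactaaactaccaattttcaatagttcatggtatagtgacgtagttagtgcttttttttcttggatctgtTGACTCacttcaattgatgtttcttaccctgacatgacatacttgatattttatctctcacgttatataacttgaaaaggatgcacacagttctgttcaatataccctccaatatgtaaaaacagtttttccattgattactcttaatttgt
THS1: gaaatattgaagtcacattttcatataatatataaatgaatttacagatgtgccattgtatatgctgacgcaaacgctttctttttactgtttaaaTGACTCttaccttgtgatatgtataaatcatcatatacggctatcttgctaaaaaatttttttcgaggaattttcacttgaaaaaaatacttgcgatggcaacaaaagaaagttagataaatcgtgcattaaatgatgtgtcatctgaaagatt
LYS12: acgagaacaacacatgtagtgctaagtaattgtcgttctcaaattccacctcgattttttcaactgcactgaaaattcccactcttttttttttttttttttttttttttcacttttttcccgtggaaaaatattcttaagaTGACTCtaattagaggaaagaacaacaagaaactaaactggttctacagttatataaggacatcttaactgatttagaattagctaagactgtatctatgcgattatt

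TGACTC stood in 410 of 6001 such windows over the whole genome (6.83%) and in 24 of the 205 windows of chromosome IX genes that were tested (11.7%). It stood in 5 of the 5 windows of the amino acid synthesis genes of the chromosome, which are HIS5, HIS6, LYS12, LYS1 and SER33. Of genes called as departing from proportion at 1 copy, TGACTC stood in 4 of the 23 windows of those above it. These 4 are NIT1, SER33, HIS5 and THS1. It also stood in 2 of the 10 windows of those below it, so it did not set the 2 directions apart. The genes were chosen by their values, so these counts have no test. A match of letters is a description and does not show binding.

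The next window, chrIX:188835-189084 on the minus strand, lies before RSM25, which fell beyond proportion at 1 copy. Capitals mark CCAAT, the sequence bound by the Hap complex that activates respiratory genes.
RSM25: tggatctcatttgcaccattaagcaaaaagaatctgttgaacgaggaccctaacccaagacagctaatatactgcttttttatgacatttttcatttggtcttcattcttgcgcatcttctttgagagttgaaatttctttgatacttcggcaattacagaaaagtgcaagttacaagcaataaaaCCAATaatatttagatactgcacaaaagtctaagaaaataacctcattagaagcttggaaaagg

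DAL4 and DAL7 share a cluster and departed in opposite directions at 1 copy by the test, although DAL7 lay above proportion in HH108 only. Their windows are chrIX:408168-408417 on the plus strand and chrIX:414730-414979 on the minus strand. Capitals mark GATAAG on either strand, the sequence bound by the GATA factors of nitrogen regulation.
DAL4: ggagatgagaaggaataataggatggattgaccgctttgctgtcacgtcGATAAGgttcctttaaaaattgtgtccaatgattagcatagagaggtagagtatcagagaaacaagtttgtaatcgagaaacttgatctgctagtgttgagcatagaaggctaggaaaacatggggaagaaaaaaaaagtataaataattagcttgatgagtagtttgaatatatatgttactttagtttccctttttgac
DAL7: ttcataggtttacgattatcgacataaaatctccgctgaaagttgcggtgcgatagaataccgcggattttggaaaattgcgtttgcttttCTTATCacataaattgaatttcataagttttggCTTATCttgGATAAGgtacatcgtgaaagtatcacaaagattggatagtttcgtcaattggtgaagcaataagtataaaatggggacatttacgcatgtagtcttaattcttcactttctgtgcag

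GATAAG stood in 718 of the 6001 windows (12.0%) and in 5 of the 6 windows of the DAL cluster. CCAAT stood in 2180 of the 6001 (36.3%).

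The HH libraries used held 4129372 to 9938460 reads in genes and the Hh libraries 4675391 to 10366790. Several libraries stood apart. Reads that aligned to more than 1 place made up 30.4% to 37.8% (median 36.3%) of the HH108 libraries. In HH29 they made up 28.4% to 46.0% (median 44.3%). The share was 15.9% to 30.1% (median 19.4%) in the SC and 18.6% to 68.4% (median 21.0%) in the X euploid libraries. All HH108 libraries thus lay above the SC euploid range. The highest share was in an X euploid library, and the ranges of HH29 and of both euploid series overlapped. HH108 and Hh76 also differed most from their euploid lines on the chromosomes whose copy number was not altered, with an SD over genes of 0.87 and 0.66 on the log2 scale against 0.24 to 0.54 in HH and 0.22 to 0.35 in Hh euploid lines. HH4 was the euploid line farthest from the others. A list of 10 general stress genes was summed as CPM (reads relative to the total in genes, scaled between lines). The sum was 9988 in HH29 and 10614 in HH108, against 9010 to 45604 (median 33687) in HH euploid lines. The lowest of these was the X line HH50. HSP26 was at 3584 and 1421 CPM in HH29 and HH108, against a mean of 16949 in HH euploid lines. HSP12 was at 216 and 212 against 3303. The median difference of the list at 1 copy was nevertheless 0.32 on the log2 scale, with 1 gene called higher and 2 lower. The sum reached 20048 CPM in Hh76, against 6121 to 10115 in Hh euploid lines. Of this sum HSP12 alone gave 12531 CPM in Hh76, against a mean of 1126 in Hh euploid lines. A list of 13 mating-type genes summed to 1396 CPM in the euploid line HH1, where the median of the HH euploid lines was 225. Without HH1, 176 slopes, 19 departures and 43 gains were called. The descriptions of 2 libraries titled HH2 name other lines. How far these differences enter the results below was not tested, beyond the values given without single lines.

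The level of the whole chromosome followed its labelled copy number in every line. It was taken as the median over tested chromosome IX genes of the log2 ratio to the euploid lines of the same experiment and name series, set to 0 at the median of genes on unaltered chromosomes. HH29 stood at −0.93 and HH108 at −0.83, where 1 copy of 2 in proportion gives −1. HH15 stood at 0.57, HH88 at 0.50 and HH119 at 0.51, where 3 copies of 2 give 0.58. The 11 HH euploid lines ranged from −0.06 to 0.04. All 3 groups were separate, the SD between lines being 0.07 at 1 copy (n = 2), 0.03 at 2 copies (n = 11) and 0.04 at 3 copies (n = 3). The medians of the X euploid lines HH50 and HH115 mirror each other because each is set against the mean of the pair.

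**Figure D1:**
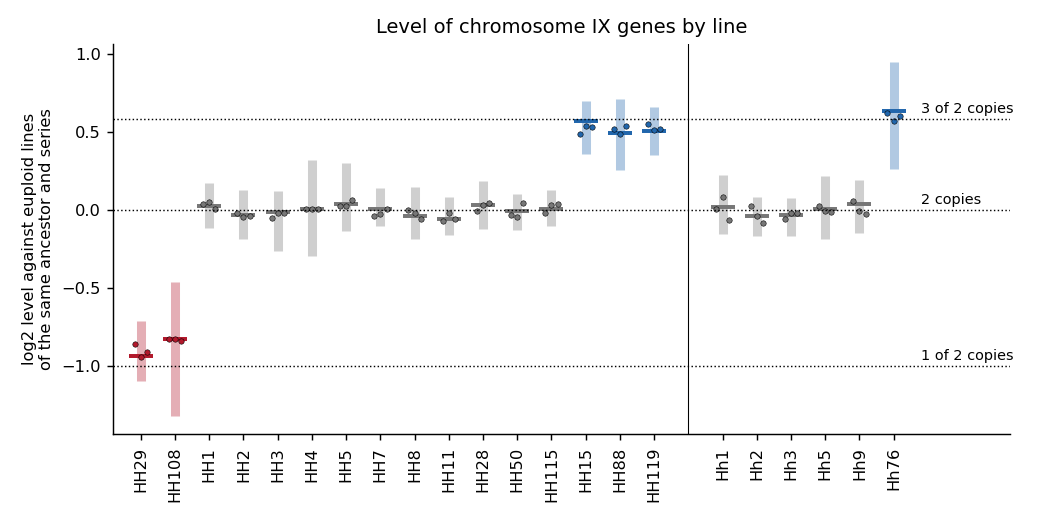
Level of chromosome IX genes in each line, as the median log2 ratio to the euploid lines of the same experiment and name series (vertical axis). Wide marks are the line's median over genes, pale bars run from the 25th to the 75th percentile over genes, dots are the 3 colonies and dotted lines are proportional levels. HH29 and HH108 lie at −0.93 and −0.83, the 3-copy HH lines at 0.50 to 0.57 and Hh76 at 0.63.

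Single colonies gave the same picture. The 3 colonies of HH29 lay at −0.86, −0.94 and −0.91, and those of HH108 at −0.83, −0.83 and −0.84. The 9 colonies of the 3-copy HH lines lay between 0.49 and 0.55, and those of Hh76 at 0.62, 0.57 and 0.60. In RNA of a whole culture, fewer transcripts per cell and fewer cells with the chromosome cannot be told apart. Hh76 stood at 0.63 against −0.04 to 0.04 in the 5 Hh euploid lines. Under scaling by total counts, genes on unaltered chromosomes of Hh76 shifted by −0.35 on the log2 scale, and the level without centring was 0.27.

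Genes of chromosome IX varied around that level about as much as genes elsewhere varied around 0. The SD over genes was 0.39 on chromosome IX and 0.43 on unaltered chromosomes in HH29, and 0.83 and 0.87 in HH108. It was 0.26 to 0.38 against 0.29 to 0.34 in the 3-copy HH lines, and 0.68 against 0.66 in Hh76. In HH29, 211 of 228 tested genes lay below both X euploid lines and 6 lay above both. In HH108, 164 lay below every one of the 9 SC euploid lines and 7 above every one. The 3-copy lines had 138 (HH15), 125 (HH88) and 131 (HH119) genes above every SC euploid line. On unaltered chromosomes 28.5% of genes in HH29 and 28.0% in HH108 lay below every such euploid line, 37.6% and 26.8% lay above every one, and 5.90% to 9.63% in the 3-copy lines lay above.

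The change ran along the whole chromosome. R64 places 210 of the tested genes by their own systematic name on a chromosome of 439888 bases with its centromere at chrIX:355629-355745. When these were split in order into 8 parts of 26 or 27 genes, the median log2 ratio lay between −1.03 and −0.86 in HH29 and between −0.96 and −0.68 in HH108. The 8 parts lay between 0.45 and 0.63 in HH15, 0.38 and 0.59 in HH88, and 0.44 and 0.60 in HH119. No part of any of these lines was near 0. Single members at or above 0 in both 1-copy lines numbered 5, which were YIL165C, NIT1, YIL163C, YIR043C and YIR044C. Of these, YIR043C and YIR044C, on the right arm, had 2.15 and 0.28 CPM on average. The left arm (168 genes) and the right arm (42 genes) stood at −0.96 and −0.92 in HH29 and at 0.56 and 0.59 in HH15. In Hh76 the left arm stood at 0.68 and the right arm at 0.40, with 0.34 in the last part of the right arm. The difference between the arms of Hh76 has no test, because it is 1 line.

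**Figure D2:**
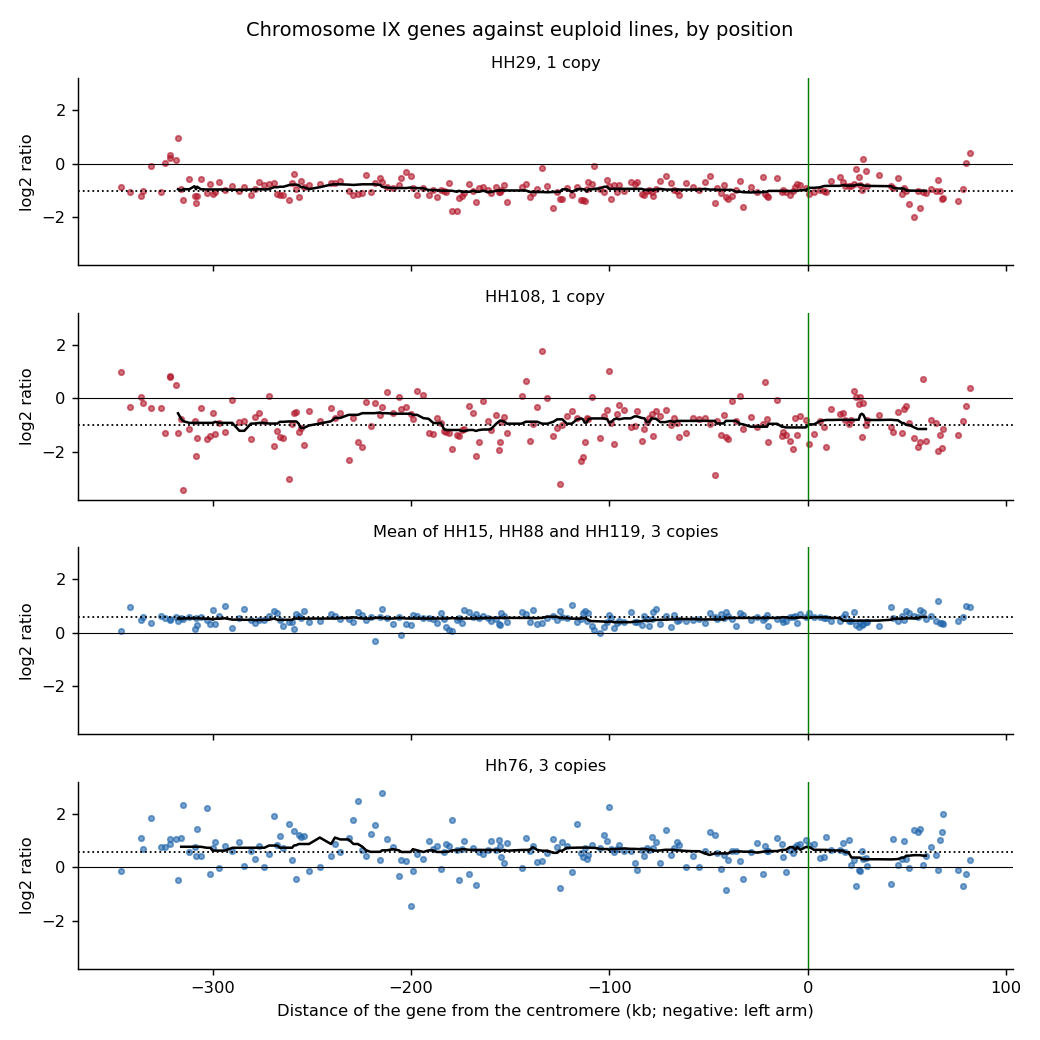
Log2 ratio of each chromosome IX gene to euploid lines (vertical axes) by distance from the centromere in kb (horizontal axis), for HH29, HH108, the mean of the 3 HH trisomic lines and Hh76. Dots are genes, black curves are running medians over 21 genes, dotted lines are proportional levels and the green line is the centromere. Medians of the left and right arms are −0.96 and −0.92 in HH29, −0.86 and −0.89 in HH108, and 0.68 and 0.40 in Hh76. In the 3 HH trisomic lines they lie between 0.48 and 0.59. A few genes near the left end, and YIR043C on the right arm, lie above 0 in both 1-copy lines.

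Dosage was then measured gene by gene. A slope was fitted for each gene over the 16 HH lines as the change in log2 level per unit of log2 copy number, so that 1 is proportional and 0 is no response. The quasi-likelihood test of edgeR was used, with Benjamini-Hochberg adjustment over all genes tested and a threshold of 0.05. Of 251 features, 228 had enough reads to be tested. The median slope over them was 0.92, with 0.70 and 1.17 at the 25th and 75th percentiles. The 6060 genes on other chromosomes had a median slope of −0.03 against the copies of chromosome IX, with −0.25 and 0.22 at these percentiles. A slope above 0 was called for 177 members (77.6%) and below 0 for none, while 4.46% of genes on other chromosomes were called above and 8.71% below. At an unadjusted p under 0.05, 199 members differed from 0 (87.3%), against 30.7% of genes on other chromosomes.

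**Figure D3:**
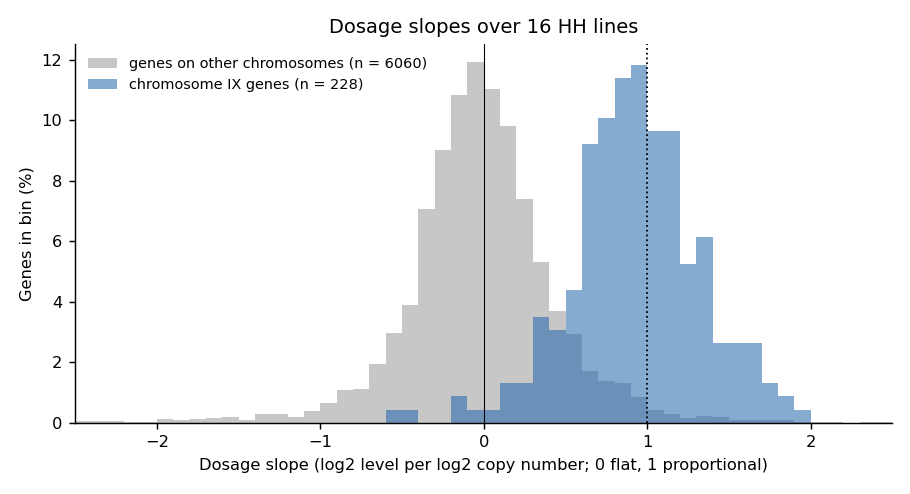
Distribution of dosage slopes over the 16 HH lines (horizontal axis; 0 is flat and 1 proportional) as the percentage of genes in each bin of 0.1 (vertical axis). Chromosome IX genes centre on 0.92 and genes on other chromosomes on −0.03.

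Order across lines told the same. In 74 of the 228 genes (32.5%) both 1-copy lines lay below every euploid line and all 3-copy lines lay above every euploid line, relative to their own name series. On other chromosomes 4 of 6060 genes did so (0.0660%). Slopes between 0.75 and 1.25 were found for 117 genes, between 0.25 and 0.75 for 58, above 1.25 for 43 and below 0.25 for 10. Of these 10, YIL175W, YIR023C-A and YIR044C had under 1 CPM, and the others were GPP1, SER33, SDP1, RPI1, YIL163C, NIT1 and YIL165C.

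The level of a gene did not set its median slope by much. Divided into 4 equal classes by mean level, the medians were 0.95 for genes of up to 21.1 CPM, then 0.86, 0.94 and 0.99 for genes of 121 to 1850 CPM. Slopes called above 0 numbered 30, 51, 50 and 46 of 57 in these classes. The least expressed class had the widest standard error, with a median of 0.27 against 0.16 to 0.19. The 1-copy lines taken singly did differ by level. From the lowest to the highest class the median log2 ratio went from −0.82 to −1.01 in HH29 and −0.62 to −1.09 in HH108. In the 3-copy lines the medians showed no steady order over the classes. Genes that varied most between euploid lines had a median slope of 0.81, against 0.92 to 0.98 in the other classes of that kind. The 20 genes within 20 kb of the centromere had a median slope of 0.99 with no departure called, and the 20 within 30 kb of an end had 0.97 with 1 departure. These classes have no test of their own.

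Departure from proportional dosage was called for 20 genes (8.77%), 17 with a slope below 1 and 3 above. On other chromosomes, where the same test asks whether a gene changed with chromosome IX copies at all, 10.0% were called, so the share on chromosome IX was near the background. At an unadjusted p under 0.05, 60 members departed (26.3%), against 30.1% of genes on other chromosomes. The count rests on HH108, since without it no member was called, without HH50 it was 12, and without any other single line 14 to 28. DESeq2 called 34 and limma-voom 19. Of the 20, 17 were also called in the test of 1 copy alone.

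The 2 departures of smallest p belonged to neighbours near the left end of the chromosome, while the slope of SER33, described below, lay farther from 1. YIL165C (chrIX:33718-34077), NIT1 (chrIX:34087-34686) and YIL163C (chrIX:36899-37252) lie in a row on the minus strand, with 9 bases between the first 2 and 2212 before the next. NIT1 encodes a protein of the nitrilase family, and YIL165C is its neighbour, which forms 1 reading frame with it in other strains. YIL163C encodes a protein of unknown function.

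NIT1 was at 56.1 CPM in HH29, above the X euploid lines at 42.8 and 51.4. It was at 88.5 CPM in HH108, against 40.6 to 86.5 (median 45.2) in the 9 SC euploid lines, the highest of which was HH4, with 50.4 next. With 3 copies it was at 60.6 CPM in HH15, 68.8 in HH88 and 73.9 in HH119. Both 1-copy lines thus stood above all euploid lines of their series, HH108 above the 3-copy lines too and HH29 just below them. The slope was −0.15 ± 0.19 (SE, adjusted p = 0.00193 against proportion). The difference of 1 against 2 copies was 0.60 on the log2 scale, 1.599 above proportion (adjusted p = 2.2e-04).

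YIL165C behaved alike, with 61.4 CPM in HH29 against 43.7 and 52.1, and 73.5 CPM in HH108 against 35.6 to 65.6 (median 40.9). The 3-copy lines had 58.9, 60.1 and 63.0 CPM. Its slope was −0.11 ± 0.18 (SE, adjusted p = 0.00174 against proportion), and it was the only member higher at 1 copy than at 2 by the test against 0 (0.61, adjusted p = 0.0219). YIL163C, a gene of 5.90 CPM on average, had 7.22 CPM in HH29 against 5.31 and 7.50, and 7.09 in HH108 against 4.02 to 6.18. With 3 copies it had 9.64, 7.44 and 5.87 CPM. Its slope was 0.12 ± 0.21 (SE, adjusted p = 0.0119 against proportion).

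Colonies within HH29 differed at this place. As CPM without scaling between lines, NIT1 had 97.9, 43.6 and 36.4 in the 3 colonies of HH29 and 59.2, 105.5 and 94.5 in those of HH108. The first colony of HH29 was thus the highest of its line, and the first of HH108 the lowest. The other colonies of HH29, at 43.6 and 36.4 CPM, lay below the X euploid line HH50, at 51.4 CPM with scaling. In a fit without HH108, HH29 alone was 0.26 above the euploid level for NIT1 and 0.36 for YIL165C, and neither departure was called (adjusted p = 0.268 and 0.0948). In a fit of the X lines only, a setting chosen after seeing the data, both were called, at 1.24 above proportion for NIT1 and 1.34 for YIL165C (adjusted p = 0.0184 and 0.00813). Over all alternatives the highest adjusted p of these 1-copy departures was that of the fit without HH108. The lowest was 5.9e-10 for NIT1, from single libraries without a block, and 3.2e-12 for YIL165C, from DESeq2. Colonies of 1 line are not independent lines, so the value from single libraries overstates the evidence. The genes on either side differed between the 1-copy lines. SOA1, a sulfonate and inorganic sulfur transporter at chrIX:30938-32566, had log2 ratios of 0.02 in HH29 and −1.31 in HH108. SUC2, at chrIX:37385-38983, had 0.98 in HH29 and −1.28 in HH108. Its slope was 0.40 ± 0.35 (SE), which differed from neither 0 nor 1 (adjusted p = 0.462 and 0.255). SMU2, the next gene on that side, was at −0.95 and −0.77.

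**Figure D4:**
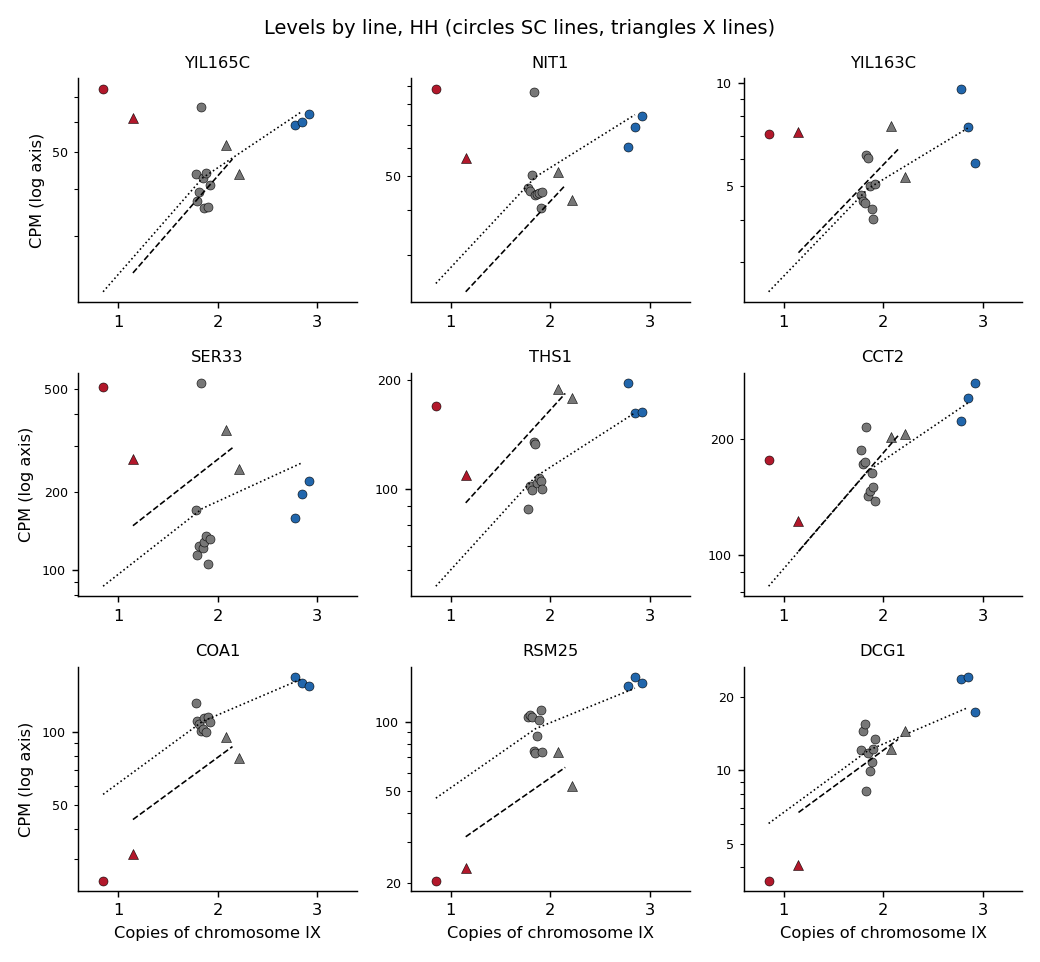
Levels of 9 chromosome IX genes in the 16 HH lines (vertical axes, CPM on a log scale) by copies of the chromosome (horizontal axes). Circles are SC lines, triangles X lines, and the dotted (SC) and dashed (X) lines show what proportion to the mean of the euploid lines gives. YIL165C, NIT1, YIL163C and SER33 stay high in both 1-copy lines, THS1 and CCT2 are within or above the SC euploid range in HH108 but below the X euploid lines in HH29, and COA1, RSM25 and DCG1 fall below proportion.

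Amino acid synthesis genes split. The 5 members had a median slope of 0.81, with 3 slopes called above 0 and 2 called below proportion. Over all members the median was 0.92, with 77.6% called above 0 and 7.46% below proportion. SER33, the phosphoglycerate dehydrogenase that opens serine synthesis, was at 511 CPM in HH108, against 105 to 528 (median 128) in SC euploid lines. The highest of these was HH4, with 171 CPM next. In HH29 it was at 268 CPM against 245 and 348, and the 3-copy lines had 158, 196 and 221. The 3-copy and 1-copy groups overlapped the euploid range, and the slope was −0.60 ± 0.35 (SE, adjusted p = 0.00876 against proportion).

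HIS5, the histidinol-phosphate aminotransferase of histidine synthesis, was at 199 CPM in HH108 against 138 to 293 (median 157), and at 119 in HH29 against 201 and 225. With 3 copies it was at 247, 255 and 226 CPM. Its slope was 0.39 ± 0.19 (SE, adjusted p = 0.0415 against proportion). LYS12, homoisocitrate dehydrogenase, and LYS1, saccharopine dehydrogenase, both enzymes of lysine synthesis, had slopes of 0.81 and 0.89 and no called departure. HIS6, an isomerase of histidine synthesis, had 7.99 CPM in HH29, 6.68 in HH108, 15.3 to 22.8 in the euploid lines and 28.9, 35.3 and 33.8 at 3 copies. Its groups did not overlap and its slope was 1.38 ± 0.13 (SE, adjusted p = 0.0647 against proportion). All 5 windows before these genes hold TGACTC, those of called and uncalled genes alike.

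THS1, the threonyl-tRNA synthetase whose window is printed above, showed the same contrast between the 1-copy lines. It was at 169 CPM in HH108, above the SC euploid lines at 88.2 to 135, and at 109.9 CPM in HH29, below the X euploid lines at 178 and 189. The 3-copy lines had 196, 162 and 164 CPM. The departure at 1 copy was 1.14 on the log2 scale (adjusted p = 0.00185). With HH29 alone it was not called (adjusted p = 0.988, with 1.3e-05 to 1.00 over all alternatives).

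The remaining genes with slopes below 1 came from several functions. QDR2, a plasma membrane drug exporter, was at 26.5 CPM in HH29 against 29.8 and 40.5, and at 28.6 in HH108 against 23.8 to 34.7. Its slope was 0.43 ± 0.13 (SE, adjusted p = 0.00876 against proportion). ASG1, a zinc cluster transcription factor, and DAL81, an activator of nitrogen genes, had slopes of 0.61 and 0.61 and kept the order of copies in every line (adjusted p = 0.0161 and 0.0284). DAL81 was at 18.9 CPM in HH29 and 17.6 in HH108, between 22.6 and 32.5 in the euploid lines, and at 33.2, 34.5 and 36.3 with 3 copies.

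CCT2, a subunit of the cytosolic chaperonin, was at 177 CPM in HH108 against 138 to 216, and at 122 in HH29 against 202 and 206 (slope 0.49, adjusted p = 0.0379). RPI1, a transcription regulator, and SDP1, a phosphatase of the cell wall kinase pathway, had slopes of 0.08 and 0.24. At 3 copies RPI1 had 91.8, 85.3 and 81.8 CPM against 66.0 to 150.4 (median 118) in SC euploid lines, and SDP1 had 25.2, 25.8 and 35.1 against 22.4 to 51.2, so both stayed within the euploid range. The others called below 1 were RPR2 (RNase P), DFG10 (polyprenol reductase), NEO1 (a phospholipid flippase), SPO22 (meiotic crossing over) and YIL108W, with slopes of 0.42 to 0.67.

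The 3 genes called above proportion were DCG1, RSM25 and COA1. COA1, an assembly factor of cytochrome c oxidase, was at 31.5 CPM in HH29 against 78.6 and 96.0, and at 24.4 in HH108 against 101 to 132. With 3 copies it was at 168, 159.7 and 155 CPM. Its groups did not overlap, and its slope was 1.53 ± 0.17 (SE, adjusted p = 0.0442 against proportion). RSM25, a protein of the small mitochondrial ribosomal subunit, was at 23.1 CPM in HH29 against 52.4 and 74.1, and at 20.4 in HH108 against 73.2 to 112. Its slope was 1.61 ± 0.19 (SE, adjusted p = 0.0431 against proportion). DCG1, in the DAL cluster, was at 4.06 CPM in HH29 and 3.52 in HH108, against 8.26 to 15.6 in the euploid lines, and at 23.8, 24.2 and 17.5 with 3 copies (slope 1.65 ± 0.18, SE, adjusted p = 0.0277 against proportion).

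Seen from 1 copy alone, 151 members fell against 2 copies (66.2%), against 10.1% of genes on other chromosomes, and the median difference was −0.92 on the log2 scale. Without HH108 the number of members called was 30. Departure from proportion was called for 33 members (14.5%), 23 above the proportional level and 10 below it, while 20.8% of genes on other chromosomes changed in this test. Without HH108 none was called, whereas with HH108 alone 45 were. At an unadjusted p under 0.05, 67 members departed (29.4%), against 35.3% of genes on other chromosomes, and DESeq2 and limma-voom called 43 and 33. Of the 33, 29 departed more in HH108 than in HH29. Of the 23 above proportion, 20 lay above it in each line taken alone, and all 10 below did so on their side.

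Several of the 23 stood higher against their euploid lines in HH108 than in HH29. SNL1, a co-chaperone gene, was at 25.2 CPM in HH108 against 16.8 to 27.4 but at 14.8 in HH29 against 19.8 and 25.9. SEC24, a coat protein of secretory vesicles, was at −1.14 in HH29 alone and 0.27 in HH108 alone on the log2 scale. GPP1, a glycerol phosphatase, had −0.80 and 0.95, and TIR3, a cell wall protein, had −1.19 and 0.60. SEC24, TIR3 and DAL7 were the 3 whose departures lay on opposite sides of proportion in the 2 lines.

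At 3 copies the chromosome stayed close to proportion. Of the 228 members, 45 rose (19.7%) and none fell, while no gene on other chromosomes was called (0.00%, with 218 at an unadjusted p under 0.05). The median difference was 0.53. The count of 45 went to 0 without HH88, 9 without HH119 and 18 without HH15, with 35 to 60 without any other line, and DESeq2 called 72. PRK1, a kinase of actin patches, was at 45.7, 50.0 and 57.2 CPM against 26.2 to 36.0 in SC euploid lines (0.75 ± 0.11, SE, adjusted p = 0.00531). HIS6 rose by 0.79 ± 0.13 (SE, adjusted p = 0.00847). No member departed from proportion by edgeR, DESeq2 or limma-voom, and 9 did at an unadjusted p under 0.05 (3.95%, against 3.65% of genes on other chromosomes). The lowest adjusted p of a member was 0.98 in edgeR. The median standard error was 0.18, where a gene with no response departs by 0.58. The lack of calls thus does not show that each gene was in proportion.

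Whether gain and loss gave different responses per copy was tested by the bend of the response at 2 copies. No member was called by edgeR or limma-voom and 2 by DESeq2, with 26 (11.4%) at an unadjusted p under 0.05 against 14.6% of genes on other chromosomes, where 0.0495% were called. Without HH29, 21 members were called, and without HH4, 2.

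Ribosomal protein genes of the chromosome followed its dosage by the fitted slope. The 5 members RPL40A, RPL16A, RPS24B, RPL34B and RPL2B had slopes of 0.92, 1.18, 1.08, 1.03 and 0.61. Of the 5, 4 were called above 0, where 77.6% of all members were. Their median difference at 3 copies was 0.51, and 0 of the 5 were called against 2 copies, where 19.7% of all members were. RPL16A was at 53.8 CPM in HH29 against 113 and 135, at 55.3 in HH108 against 46.7 to 199, and at 200, 263 and 159 with 3 copies. The lowest euploid line was HH4 in each of the 5. RPL2B, at 281 CPM in HH108 against 157 to 428, was not called against 0 or against 1 (adjusted p = 0.0751 and 0.238). Their near-identical partners on other chromosomes, RPL40B, RPL16B, RPS24A, RPL34A and RPL2A, had slopes of −0.26 to 0.18, and none was called. Reads shared within such pairs can be lost or split in the counting, so these values are uncertain.

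**Figure D5:**
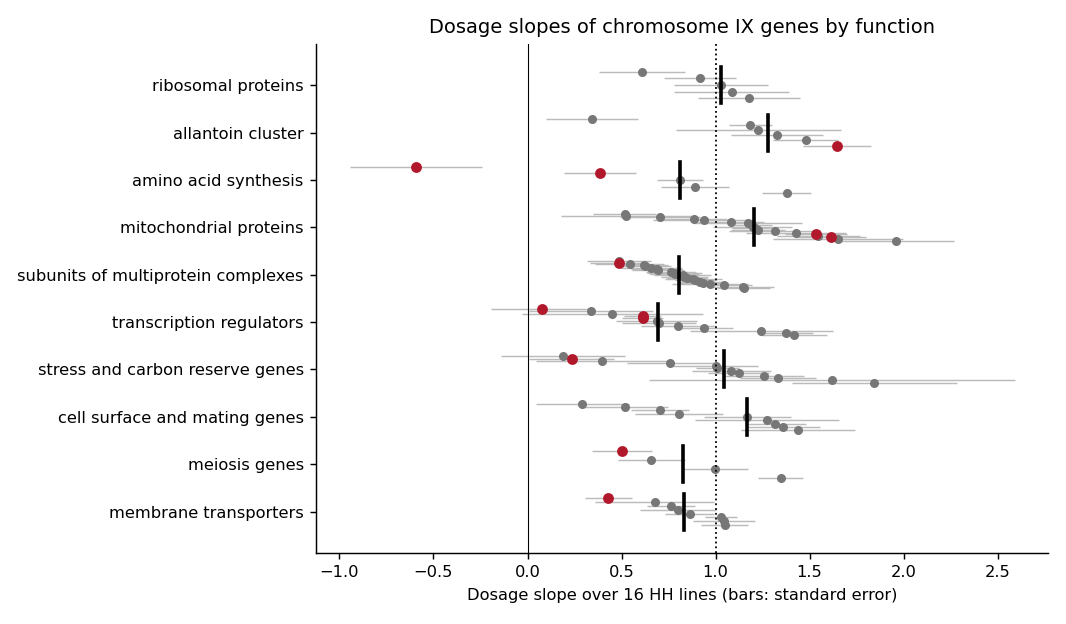
Dosage slopes over the 16 HH lines (horizontal axis) of chromosome IX genes in 10 functional lists (rows), with standard errors as bars. Red dots are genes called as departing from a slope of 1, black bars are list medians, and the dotted line is proportion. Medians run from 0.69 for transcription regulators to 1.28 for the allantoin cluster.

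In the allantoin cluster 4 of 6 slopes were called above 0, and the median was 1.28, against 77.6% and 0.92 over all members. DAL1 (allantoinase), DAL2 (allantoicase), DAL4 (the allantoin permease) and DAL3 (ureidoglycolate lyase) had slopes of 1.18, 1.33, 1.48 and 1.23, that of DAL3 not called (adjusted p = 0.0665). DAL4 was at 12.1 CPM in HH29 against 44.9 and 51.9, and at 14.1 in HH108 against 32.9 to 57.7, below proportion in both (adjusted p = 0.0186 for the 1-copy departure). DAL7, a malate synthase between DCG1 and DAL3, was at 26.3 CPM in HH108, above the SC euploid lines at 10.9 to 20.6. In HH29 it was at 13.2 CPM against 19.2 and 38.3. Its 1-copy departure lay above proportion (1.09 on the log2 scale, adjusted p = 0.0161). The windows of both hold GATAAG, 1 in DAL4 and 3 in DAL7.

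Genes for mitochondrial proteins followed copy number. Of 18, 17 were called above 0, where 77.6% of all members were. Slopes above 1 numbered 13 and the median was 1.20, against 0.92 over all members. The median difference at 1 copy was −1.09 with HH29 alone and −1.51 with HH108 alone. OM45, an outer membrane protein and the most abundant member, was at 486 CPM in HH29 against 1143 and 1316, and at 249 in HH108 against 1465 to 2679. MAM33, a matrix protein, was at 33.5 CPM in HH29 against 59.8 and 112, and at 11.7 in HH108 against 83.7 to 152. FIS1, needed for mitochondrial fission, was at 65.7 and 56.5 CPM against 128 and 211 in the X and 233 to 359 in the SC euploid lines. These 3, with COA1 and RSM25, were the 5 of the list that fell beyond proportion at 1 copy by the test. POR2, a minor porin, departed the other way, at 24.95 CPM in HH108 against 17.3 to 30.8. CCAAT stood in the windows of 8 of the 10 members called below proportion at 1 copy and of 5 of the 23 called above it, against 36.3% of all windows. The 8 were the 5 of the list named above with FAF1, DAL4 and DCG1, which are not on the mitochondrial list. CCAAT was not counted over the 18 mitochondrial genes. The called genes were chosen by their values, so that count has no test, and a part of the Hap complex was not tested.

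Subunits of large complexes lay mostly below a slope of 1. Of 22, 20 were called above 0 and 19 had slopes below 1, with a median of 0.80, and 1 (CCT2) was called as a departure. Over all members 77.6% were called above 0 and 8.77% as departures. Their median slope was 0.92, so most members also lay below 1. None of the lists in this paragraph was tested as a set. For the complex subunits the median difference at 1 copy was −0.81 with HH29 alone and −0.73 with HH108 alone, and at 3 copies it was 0.52. Transcription regulators had a median slope of 0.69, with 9 of 12 called above 0 and RPI1, ASG1 and DAL81 called below proportion. The 12 stress and carbon reserve genes had a median of 1.05 and spanned 0.19 (GPP1) to 1.84 (POT1, a thiolase of fatty acid oxidation), with 8 called above 0. The 9 cell surface and mating genes tested had a median of 1.17 with 7 called above 0, the 8 transporters 0.83 with 7, and the 4 meiosis genes 0.83 with 4. HOP1, a protein of the meiotic chromosome axis, fell to 15.9 CPM in HH29 against 47.8 and 51.3 and to 13.7 in HH108 against 30.8 to 43.8, below proportion (adjusted p = 0.0137). PRM2, a pheromone-regulated membrane protein, was at 6.67 CPM in HH29 against 8.87 and 9.34, and at 4.21 in HH108 against 4.62 to 6.70. It lay above proportion (adjusted p = 0.0435).

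The 5 most abundant members were OM45, SUC2, KGD1 (a subunit of α-ketoglutarate dehydrogenase), HYR1 (a peroxidase) and NRE1. KGD1 and HYR1 had slopes of 1.43 and 1.26, and NRE1 had 1.59, all called above 0 and none called as a departure. NRE1 was at 211 CPM in HH29 against 270 and 376, at 123 in HH108 against 278 to 714, and at 986, 1244 and 1083 with 3 copies. Its groups at 2 and 3 copies did not overlap, while its difference at 3 copies was not called (adjusted p = 0.113).

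In the heterozygous background the 3 copies of Hh76 gave a median difference of 0.56 over 225 tested members. The 3-copy arm is 1 line, so the spread in the edgeR test comes from the 5 euploid lines and the line is assumed to vary like them. The test called 7 members (3.11%), all higher, against 0.559% of genes on other chromosomes called higher and 1.12% in either direction, and 124 were at an unadjusted p under 0.05 (55.1%, against 24.3% on other chromosomes). DESeq2 called 74 and limma-voom 0, and the edgeR count was 45 without Hh1, 1 without Hh5 and 0 without Hh2, Hh3 or Hh9. In Hh76, 158 members lay above every euploid line and 12 below, against 24.2% and 33.5% of genes on unaltered chromosomes. The 7 were GUT2, AXL2, POT1, CSS1, TPM2, PRI1 and YIL014C-A. GUT2, the mitochondrial glycerol-3-phosphate dehydrogenase, was at 4321 CPM against 623 to 1273 in the Hh euploid lines. AXL2, a membrane protein of bud site choice, was at 231 CPM against 41.2 to 77.0, and POT1 at 2382 against 278 to 681.

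No member was called as departing from proportion in Hh76 by edgeR, with 55 at an unadjusted p under 0.05 (24.4%, against 23.2% of genes on other chromosomes), 23 called by DESeq2 and 0 by limma-voom, and without Hh1 edgeR called 8. On other chromosomes 0.280% were called. HIS6 was at 17.3 CPM in Hh76, below the euploid lines at 27.3 to 39.7. PRK1 was at 34.2 against 37.0 to 45.3 and POR2 at 17.8 against 19.4 to 26.04. All 3 lay below every Hh euploid line although the line carries 3 copies (adjusted p = 0.0646, 0.0825 and 0.0920 for the departure). NIT1 and YIL165C were at 109 and 110 CPM, above the euploid lines at 47.8 to 93.5 and 43.7 to 79.2. The mitochondrial list had a median of 0.04 in Hh76, with 9 of 18 above 0, while the complex subunits had 0.62 with 21 of 22 above 0 and the ribosomal proteins 0.89 with 5 of 5. The sum of the stress list on other chromosomes was also high in Hh76, as given above, though only 4 of its 10 genes were higher. The median difference of that list was −0.09, and its part in these values was not tested.

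The effect of 3 copies was compared directly between experiments in 1 fit. Of 230 members tested, 5 differed (2.17%), against 4.56% of genes on other chromosomes, so the share was not above the background. For HIS6, PRK1 and YIL067C, a gene of unknown function, the log2 difference from 2 copies was 0.79, 0.75 and 0.99 in HH and −0.92, −0.32 and −0.26 in Hh76. The effect in Hh76 was thus lower by the test, with Hh minus HH at −1.68, −1.04 and −1.22 (adjusted p = 0.00549, 0.0168 and 0.0479). For RPI1 and ATG44, a mitochondrial fission protein, the difference from 2 copies was −0.38 and 0.27 in HH and 1.45 and 1.38 in Hh76. The effect in Hh76 was higher, with Hh minus HH at 1.87 and 1.14 (adjusted p = 0.0482 and 0.0282). None of the 5 passed the test against 2 copies within Hh. The count ran from 2 to 20 when single lines were left out, being 2 without HH88 or HH119, 9 without HH4, 11 without Hh9 and 20 without Hh1. It was 3 without HH1, HH7, HH8, Hh2, Hh3 or Hh5.

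Of the 251 features, 23 were not tested in HH. Most had almost no reads, and 12 had none in any library of the series. Among them were PAU14, a seripauperin, and IMA3, an isomaltase, both members of near-identical gene families. R64 holds no entry for 29 features, of which 16 were tested; their median level was 0.29 CPM, against 55.5 CPM for features with an entry. YIL014C-A was called higher in Hh76 but had 4 reads in the HH lines together.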

How the data were processed

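RNA was sequenced with a stranded Illumina kit as single reads of 75 bases. The authors deposited read counts per gene for each library and FPKM values (fragments scaled by gene length and depth) for the same libraries. Per the submitters' processing notes, Trim Galore 0.4.4, TopHat2 2.1.1, HTSeq 0.6.1pl, Cufflinks 2.2.1 and the build sacCer3 were used. Whether counting used strand is not stated in these notes. Of 116 libraries, 66 were used. The counts of the 3 colonies of a line were summed, so that a line is the replicate. Genes were filtered by edgeR's filterByExpr and scaled by TMM, and edgeR 4.0.16 (quasi-likelihood test, R 4.3.3) was fitted over all genes with a name series term in HH. Known copy numbers of altered chromosomes entered the departure tests as offsets. Levels are log2(CPM + 0.5), and FPKM served as an alternative for them. The scripts were tested on simulated data. DESeq2 1.42.0, limma 3.58.1 and the other alternatives are given below. Colonies of a line differed by more than sampling noise (lowest chi-square per degree of freedom 7.04). Titles of the ancestor libraries name run 1, with an SC code, and run 2; titles of the lines give no run, so SC and X may stand for these runs. The members and gene lists were chosen with earlier results of these data known. Named genes were those called in departure tests, up to 8 per test for 1 or 3 copies, the 3 leading genes in each direction in Hh, every ribosomal, allantoin and amino acid gene, and the 5 most abundant members. SOA1, SMU2, TPM2, CSS1 and PRI1 were named after their values were seen.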

Additional observations from a re-analysis of the deposited data

Results flagged for a closer look

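In the 5 Hh euploid lines, 4 of 54 groups of values had 1 line far from the others, by a gap of over 0.71 of the range; chance gives about 1 in 20 such groups. DAL3 was at 64.77 CPM in Hh1 against 36.2 to 41.45 in the other lines. LYS12 was at 520.7 CPM in Hh1 against 301.5 to 348.5. ATG44 was at 77.16 CPM in Hh1 against 47.16 to 54.64. NRE1 was at 170.4 CPM in Hh5 against 95.87 to 117.5.

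The effect of 3 copies differed between the experiments for 5 genes by the test of the difference in edgeR. As Hh minus HH on the log2 scale, it was −1.6809 for HIS6, −1.2162 for YIL067C, −1.0389 for PRK1, 1.8674 for RPI1 and 1.1383 for ATG44. Hh76 is 1 line with further altered chromosomes, so the experiment and those chromosomes cannot be told apart.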

How the results depend on the processing

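Counts are of chromosome IX genes called in either direction. DESeq2 called 34 departures, 72 genes at 3 against 2 copies, 2 bends, 74 genes (72 higher, 2 lower) and 23 departures in Hh76, and 22 differences between experiments. With genes of at least 50 CPM there were 100 slopes, 94 genes at 1 against 2 copies (92 lower, 2 higher), 18 departures at 1 copy, 0 genes in Hh76 and 1 difference. Genes called in Hh76 numbered 0 by limma-voom, 16 with no filter (with 3 differences), 0 with other aneuploid lines added and 24 with TMM from unaltered chromosomes. Without the name series term 36 departures were called. Chosen after seeing the data, the SC lines alone gave 19 bends, and the X lines alone 20 slopes, 20 genes at 1 against 2 copies, 3 departures and 3 at 1 copy. In those X lines SER33 had a slope of 0.16, SUC2 −0.96, NEO1 a departure of 0.0012, SEC24 −0.16 and TIR3 −0.21. Without HH108 SER33 and SUC2 had slopes of 0.20 and −0.10, and SEC24 and TIR3 1-copy departures of −0.14 and −0.195. Without HH29 these 4 values were −0.75, 1.01, 1.27 and 1.595.

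Single libraries with the colony number as a replicate block gave 63 departures, 107 genes at 3 against 2 copies, 69 departures at 1 copy, 11 bends, 102 genes (101 higher, 1 lower) and 43 departures in Hh76, and 35 differences. Unblocked they gave 63, 106, 68 and 9 for the first 4. Colonies of 1 line are not independent lines. Same-numbered colonies did not deviate together (mean r 0.008 against −0.003 for other numbers in HH, and 0.013 against −0.006 in Hh), and 18 of 48 and 7 of 18 libraries correlated best with their own number.

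Leaving out 1 line gave 119 to 184 slopes, 0 to 28 departures, 0 to 60 genes at 3 and 30 to 163 at 1 against 2 copies (163 without HH4, 160 lower and 3 higher), 0 to 45 departures at 1 copy, 0 to 21 bends, 0 to 45 genes and 0 to 8 departures in Hh76, and 2 to 20 differences. The level at 1 copy was −0.96 with genes of at least 50 CPM and −0.73 with a pseudocount of 5 CPM. At 3 copies it was 0.57 by total counts and 0.45 with that pseudocount, and in Hh76 0.60 from FPKM, 0.27 by total counts and 0.55 with that pseudocount. Leaving out 1 line gave −0.93 to −0.83, 0.50 to 0.54 and 0.62 to 0.65. Of 1491 values of 56 called gene results under alternatives, 1263 stayed called in the same direction, 223 were no longer called and 5 changed sign. This total includes fits of single libraries, where all stayed called, and many fits without 1 euploid line. Most of the 56 were no longer called without HH108, so the total does not show that they hold without that line. The cause of these changes was not tested.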
